A study of Homo sapiens with 14 samples.

Results

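GYS1, the gene of muscle-type glycogen synthase, and 6 further genes of glycogen metabolism, PYGB, PYGL, GBE1, UGP2, GYG1 and PPP1R3C, were read across nascent transcription libraries of A549 cells, a human lung adenocarcinoma line. They are 7 of the 58780 genes in the count table, and all 7 were among the 21910 genes that passed the filter on low counts. GYS1 was selected on its own measured values, namely its low level with MS023 and dexamethasone (Dex) beside untreated cells and beside MS023 alone. The other 6 were listed for their function in the pathway. Values of GYS1 from contrasts that use the untreated, MS023 15 min or MS023 with Dex libraries are therefore given as a description, with no test. That leaves 3 of the 14 contrasts in which GYS1 was tested.

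Precision run-on sequencing (PRO-seq) was used, in which engaged RNA polymerases add labelled nucleotides to the RNA they are making and that RNA is then captured and sequenced. GSK591 blocks PRMT5, which places most symmetric dimethyl marks on arginine, MS023 inhibits the type I arginine methyltransferases, and Dex is a synthetic glucocorticoid that activates the glucocorticoid receptor. The 14 libraries formed 7 groups of 2, all of A549 cells kept in 0.01% DMSO: untreated (carrying a 15 min label), 1 µM GSK591 for 15 min, 1 µM MS023 for 15 min, the same 15 min treatments with 100 nM Dex added, and 3 h of GSK591 or of MS023. Dex alone and an untreated group at 3 h were not analysed here, so the 3 h groups are compared with 15 min controls, and a Dex difference is one seen beside an inhibitor. No label says that the replicates of a group came from separate cultures, so p-values measure the spread between these libraries, which may be technical.

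Glycogen is the branched store of glucose in animal cells. UGP2 makes the activated sugar UDP-glucose, glycogenin (GYG1) starts a chain on itself, glycogen synthase (GYS1) lengthens it and the branching enzyme (GBE1) adds branches. Glycogen phosphorylases (PYGB, named for brain, and PYGL, named for liver) release glucose 1-phosphate, and PPP1R3C, also called protein targeting to glycogen, brings protein phosphatase 1 to glycogen, where it activates the synthase and inactivates the phosphorylase.

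GYS1 (ENSG00000104812.14) lies on the minus strand of chromosome 19, 48968125 to 48993310 (GRCh38), and its start faces that of RUVBL2, an ATPase of chromatin remodelling complexes, 137 bp away on the plus strand. The stretch between the annotated starts of both genes is shown because it lies upstream of each (chr19:48993311-48993447, minus strand, the strand of GYS1). The upstream sequence of PYGB (ENSG00000100994.11, chr20:25247835-25248068, plus strand) is shown for comparison, because its level and that of GYS1 lay on opposite sides of untreated cells in the Dex libraries. Both are from RefSeq (GRCh38.p14), written 5′ to 3′, with capitals at matches to the CCAAT box (CCAAT on either strand).
GYS1: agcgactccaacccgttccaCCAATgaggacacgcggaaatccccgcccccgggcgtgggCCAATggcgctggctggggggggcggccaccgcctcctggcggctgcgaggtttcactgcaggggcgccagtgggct
PYGB: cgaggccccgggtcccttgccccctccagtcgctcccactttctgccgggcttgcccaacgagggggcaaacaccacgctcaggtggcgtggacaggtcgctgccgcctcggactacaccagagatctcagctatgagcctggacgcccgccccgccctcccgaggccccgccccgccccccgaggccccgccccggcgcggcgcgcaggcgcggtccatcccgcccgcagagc
The GYS1 stretch holds 2 CCAAT boxes and the PYGB stretch none. Over promoters reaching from 250 bases before a start to 50 after it, UGP2 (in 1 of its 2 promoters) and PPP1R3C hold 1 CCAAT box each and PYGL, GBE1 and GYG1 none, and 34.6% of 35116 RefSeq promoters hold a CCAAT box. The palindromic glucocorticoid response element, in which the hexamer AGAACA meets its reverse complement across 3 free bases, was in none of the promoters of the 7 genes and in 0.00285% of all promoters, and the hexamer AGAACA alone was likewise in none of the 7 and in 14.8% of all. The E-box CACGTG was in those of GYG1 and PPP1R3C, against 7.26% of all promoters. Both strands were searched, the hexamer is contained in the full element, and a match or its lack describes only these letters in this window.

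Total counts ran from 5768312 to 9606938 per library, of which 39.8 to 58.0% were mitochondrial. With GSK591 and Dex the mitochondrial share was 48.2% in replicate 1 and 58.0% in replicate 2, a gap of 9.76 percentage points. In the other 6 groups the 2 libraries were 0.261 to 4.70 points apart, and the group means ran from 42.2% (MS023 15 min) to 53.9% (untreated). The part of this share in the results was not tested. Of the epithelial markers, the keratin genes KRT8 and KRT18 were high (summed level of 5 markers 403 to 529 in CPM, the count relative to the TMM-scaled library size), while CDH1 and EPCAM were low, at 1.30 to 4.09 CPM. The leukocyte marker CD3E was at 0 in all 14 libraries, and PTPRC, VWF and COL1A2 were each at 0 in 10 of 14. CD14 (2.36 to 3.88 CPM) and the collagen gene COL1A1 (4.83 to 7.88 CPM) had reads in every library, COL1A1 above CDH1 and EPCAM. PECAM1 and CDH5 were at 0 in 1 library each, with highest values of 0.554 and 1.41 CPM. Summed over 3 markers each, the levels were 2.36 to 3.96 CPM (leukocyte), 0.236 to 1.84 CPM (endothelial) and 5.42 to 8.79 CPM (fibroblast), and their part in the results was not tested.

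GYS1 was the highest of the 7 genes per kilobase of exon, with a median over the libraries of 53.4 CPM per kb. PYGB followed at 21.4, GBE1 at 6.82, UGP2 at 4.95 and PYGL at 4.04 CPM per kb. PPP1R3C and GYG1 both stood at 2.26 CPM per kb. The feature counted is not given, and the gene bodies span from 4613 bp (PPP1R3C) to 272463 bp (GBE1). The order could therefore differ if whole gene bodies were counted. GYS1 also varied most, 3.77-fold between its lowest and highest library, against 2.27-fold for PPP1R3C and 1.27-fold for UGP2, the steadiest. Because GYS1 was selected for its low level in some of these libraries, its wide range follows in part from that choice.

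**Figure D1:**
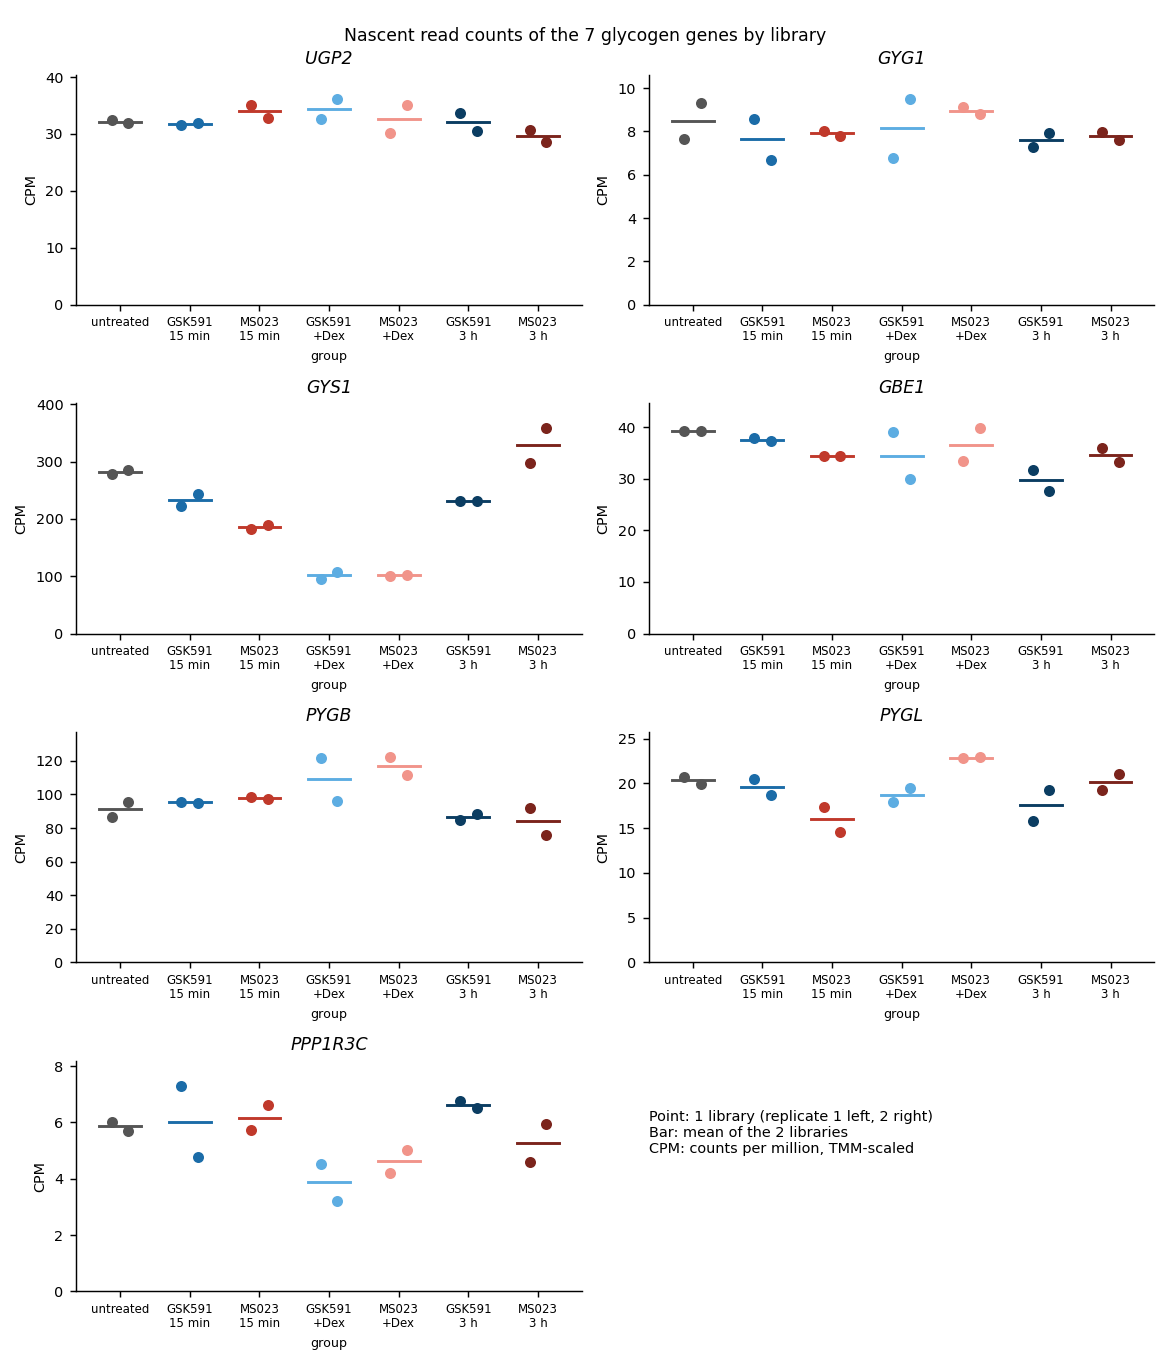
Level of each of the 7 genes (y axis, CPM) in each of the 14 libraries by group (x axis), with a point per library and a bar at the mean of the 2 libraries. GYS1 sits near 100 CPM in the 4 Dex libraries, with a highest Dex library of 108 CPM, and at 183 CPM or more in the other 10, while UGP2 stays between 28.5 and 36.1 CPM.

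Glycogen synthase is the enzyme that adds glucose units to glycogen, and its nascent signal was lowest where Dex was present. GYS1 read 279 and 285 CPM in the 2 untreated libraries, 223 and 244 CPM with GSK591 for 15 min, and 183 and 189 CPM with MS023 for 15 min. With Dex it read 95.1 and 108 CPM beside GSK591, and 101 and 103 CPM beside MS023. At 3 h it read 231 and 231 CPM with GSK591 and 298 and 359 CPM with MS023. The 4 Dex libraries were all below the other 10, and the ranges of the 2 Dex groups overlapped. In such bulk libraries, fewer transcribing cells and less RNA per cell cannot be told apart. From the top, the order was MS023 3 h, untreated, GSK591 15 min together with GSK591 3 h, whose libraries overlapped, MS023 15 min, and then the Dex groups.

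Adding Dex to GSK591 was the Dex comparison that did not use the libraries on which GYS1 was selected. There GYS1 fell by a log2 fold change of -1.20 ± 0.11 (SE), or 2.30-fold, with an adjusted p of 1.3e-10 (edgeR's quasi-likelihood test, Benjamini-Hochberg over 21910 genes), and both Dex libraries were below both GSK591 libraries. In this comparison 3.70% of all genes tested were called, that is, had an adjusted p under 0.05. GYS1 ranked 9 of 21910 by p, and it had the lowest log2 fold change of the 475 genes averaging 100 CPM or more. DESeq2 gave an adjusted p of 1.7e-26, and leaving out each library in turn gave log2 fold changes of -1.28 to -1.11.

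The contrasts that share libraries with the selection gave these values for GYS1, without a test. Beside MS023 the difference with Dex was -0.86 ± 0.10 on the log2 scale. Against untreated cells it was -1.47 ± 0.11 with GSK591 and Dex and -1.47 ± 0.10 with MS023 and Dex. The inhibitors alone at 15 min stood at -0.27 ± 0.10 (GSK591) and -0.60 ± 0.10 (MS023), with no overlap of either group with the untreated libraries. The difference between the 2 Dex effects, GSK591 minus MS023, was -0.33 ± 0.15, and GSK591 with Dex minus MS023 with Dex was -0.01 ± 0.11. The authors' deposited table gives -0.30 (GSK591), -0.62 (MS023), -1.50 (GSK591 with Dex) and -1.49 (MS023 with Dex) for the same gene against the control.

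GSK591 at 3 h did not move GYS1 beyond the spread from its 15 min level: the log2 fold change was -0.01 with a 95% interval of -0.22 to 0.19 (edgeR adjusted p = 0.96), and 6.41% of genes were called in that comparison. The inhibitors were compared with each other at 3 h in the other test open to this gene. GYS1 was lower with GSK591 than with MS023 by -0.51 ± 0.10 on the log2 scale, all libraries apart, with an edgeR adjusted p of 0.08. That is the second lowest p of 21910 genes in a comparison where edgeR called 0 genes (0%, with 1319 at an unadjusted p under 0.05) and DESeq2 called 1 gene, which was GYS1 (adjusted p 0.016). Without a count filter, or with the replicate number as a block, edgeR's adjusted p was 0.00069 and 0.029. Under 7 of the 11 alternatives the difference stayed uncalled. As a description, GYS1 with MS023 was 0.82 ± 0.10 higher at 3 h than at 15 min, and against untreated cells it stood at 0.22 ± 0.10 with MS023 and -0.29 ± 0.10 with GSK591 at 3 h.

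**Figure D2:**
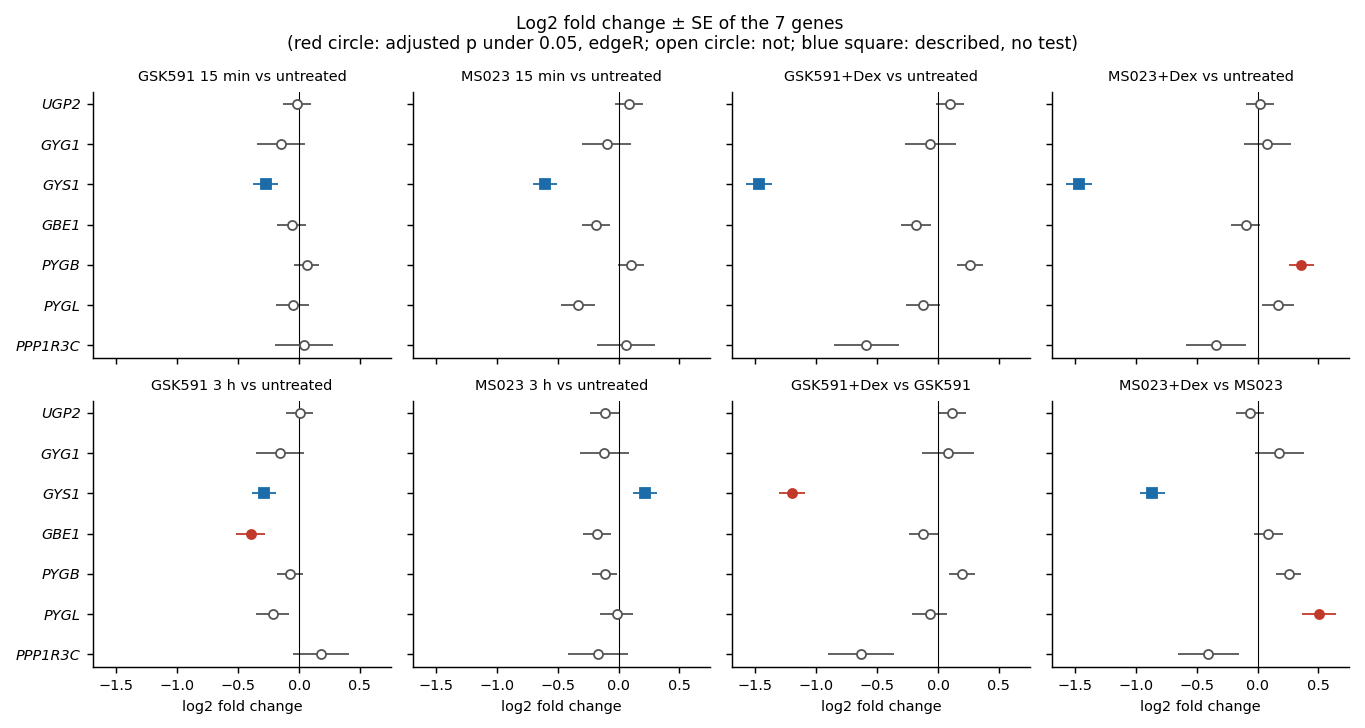
Log2 fold change (x axis) with its standard error for the 7 genes (y axis) in 8 comparisons, a panel each; red circles passed an adjusted p of 0.05 (edgeR), open circles did not, and blue squares are GYS1 in contrasts that share libraries with its selection. In the panels with Dex GYS1 lies at -0.86 to -1.47, while no other gene is below -0.63. Of these panels, only GSK591 with Dex against GSK591, where GYS1 is at -1.20, is free of that selection.

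The genes beside GYS1 did not all share its pattern. FTL, the light chain of the iron store ferritin, ends 1246 bp from the end of GYS1 on the opposite strand, so both genes are transcribed toward that gap. FTL read 191 and 162 CPM in untreated cells, 173 and 181 CPM with GSK591 and 185 and 159 CPM with MS023 at 15 min. With Dex it read 120 and 122 CPM beside GSK591 and 119 and 110 CPM beside MS023. The 4 Dex libraries were again below the others. FTL fell with Dex by -0.56 ± 0.10 (log2, adjusted p 0.00076) beside GSK591 and by -0.58 ± 0.10 (adjusted p 1e-04) beside MS023 in edgeR.

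AC026803.2, a long noncoding RNA gene between BAX and FTL, fell with Dex too, by -0.55 ± 0.12 beside GSK591 (edgeR adjusted p 0.0051) and by -0.45 ± 0.12 beside MS023 (0.013; DESeq2 0.066). Without GSK591 15 min replicate 2 the first value was -0.53, and without GSK591 with Dex replicate 1 it was -0.44. The second call was lost with nuclear library size (edgeR adjusted p 0.05). Its value was -0.40 without MS023 15 min replicate 1, and -0.46 and -0.43 without either MS023 with Dex library. BAX, the apoptosis effector farther along, had values of -0.30 ± 0.10 (adjusted p 0.1) and -0.18 ± 0.10 (0.35). RUVBL2, whose start faces that of GYS1, had values of -0.08 ± 0.11 and 0.02 ± 0.11, neither called, and its Dex libraries overlapped those without Dex. With GSK591 at 3 h the order was different. FTL rose against untreated cells by 0.44 ± 0.10 (edgeR adjusted p 0.0021), where GYS1 stood at -0.29. Without untreated replicate 2 this FTL value was 0.34. With MS023 at 3 h both genes lay above untreated cells, FTL by 0.29 ± 0.10 (edgeR adjusted p 0.071, not called) and GYS1 by 0.22.

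The count of GYS1 over that of FTL does not depend on how libraries are scaled. It was 1.46 and 1.76 in untreated cells, 1.29 and 1.34 with GSK591 at 15 min, and 0.795 and 0.889 with GSK591 and Dex. With MS023 it was 0.988 and 1.19 at 15 min and 0.847 and 0.933 with Dex. The ratio was thus lower with Dex beside GSK591 than with GSK591 alone, without overlap. The same order beside MS023 is a description, because GYS1 was selected on those libraries. At 3 h the ratio was 0.927 and 0.999 with GSK591 and 1.31 and 1.76 with MS023. The exons of GYS1 overlap no other gene's exons. The strand setting of the counting is not given in the sources used here, so reads from transcription running past the end of FTL cannot be told apart from reads of GYS1, and their part in the result was not tested.

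**Figure D3:**
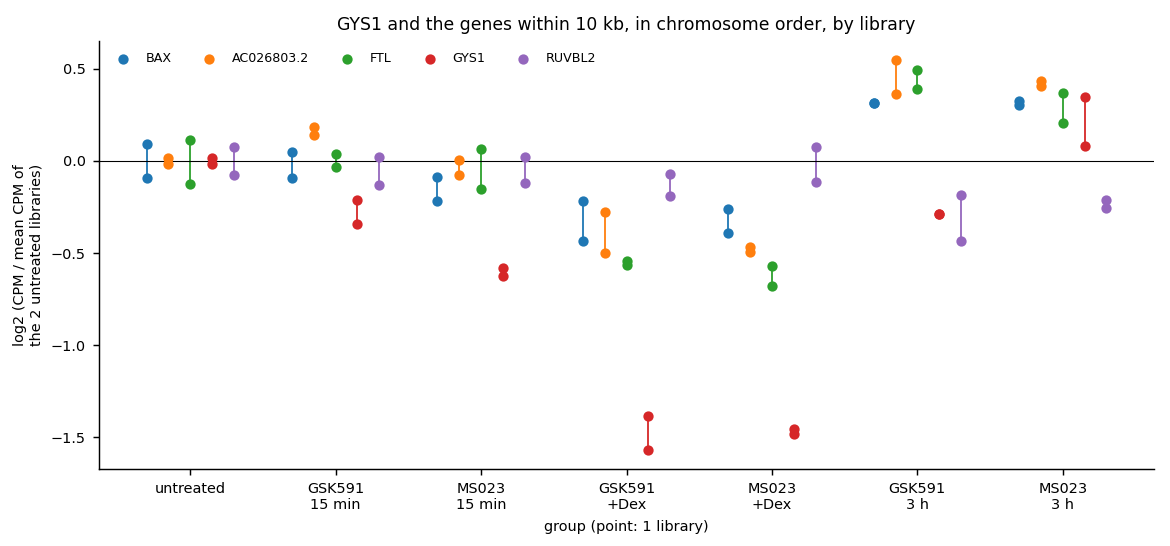
Level of GYS1 and the genes within 10 kb in each library (y axis, log2 of CPM over the mean of the 2 untreated libraries) by group (x axis), with a point per library and a line joining the 2 libraries of a group. GYS1 lies lowest in the Dex groups, FTL, AC026803.2 and BAX lie between it and RUVBL2, and at 3 h with GSK591 GYS1 and FTL lie on opposite sides of 0.

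Over the 14 libraries, the genes whose log2 CPM followed GYS1 most closely were MAFG (Pearson's r = 0.97), a small MAF transcription factor, MIDN (0.97), UBA1 (0.96), the ubiquitin-activating enzyme, CYP24A1 (0.96), the vitamin D hydroxylase, and HDGF (0.96). This is a ranking of 9983 genes averaging 10 CPM or more, given as a description, and the points share libraries and scaling. Their range was smaller than that of GYS1: MAFG had group means of 94.0 CPM in untreated cells, 64.1 CPM with GSK591 and Dex, and 99.3 CPM with MS023 at 3 h. FTL ranked 164 (r = 0.85), and PYGB was near the other end (r = -0.86, rank 9914).

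Of the other synthesis genes, UGP2 and GYG1 stayed within narrow ranges. UGP2, the source of UDP-glucose, read 28.5 to 36.1 CPM and passed the test in none of the 14 contrasts. GYG1, glycogenin, read 6.68 to 9.49 CPM and was also called in none. In the Dex comparison beside GSK591, UGP2 had a log2 fold change of 0.11 with a 95% interval of -0.12 to 0.35, and GYG1 one of 0.08 with -0.35 to 0.52, so a change as large as that of GYS1 lies outside both intervals.

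GBE1, the branching enzyme, fell with GSK591 at 3 h. It read 39.3 and 39.2 CPM in untreated cells and 31.8 and 27.7 CPM with GSK591 at 3 h, with no overlap. The log2 fold change was -0.40 ± 0.12 (edgeR adjusted p 0.022), in a comparison that called 11.0% of all genes. The call was lost with DESeq2 (adjusted p 0.1) and, in edgeR, with scaling by library size alone (0.32). The value was -0.39 without either untreated library and -0.32 without replicate 2 of the treated group. With MS023 at 3 h GBE1 read 36.0 and 33.2 CPM, a value of -0.18 ± 0.12 that was not called, where 7.63% of genes were, and the inhibitors differed by -0.22 at 3 h with an interval of -0.47 to 0.03.

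The phosphorylases, which break glycogen down, were higher in some Dex libraries. PYGB read 86.7 and 95.8 CPM in untreated cells, 122 and 96.3 CPM with GSK591 and Dex, and 122 and 112 CPM with MS023 and Dex. Both MS023 with Dex libraries were above both untreated libraries. PYGB rose there by 0.36 ± 0.10 (log2; edgeR adjusted p 0.023), in a comparison that called 7.66% of genes. DESeq2 (adjusted p 0.071) and both scalings by library totals (edgeR, 0.19 and 0.095) ended the call. Leaving out any 1 of the 4 libraries gave values of 0.29 to 0.43. With GSK591 and Dex the value was 0.26 ± 0.11 (adjusted p 0.16), where 5.85% of genes were called. Dex added to an inhibitor gave 0.20 ± 0.11 beside GSK591 (edgeR adjusted p 0.35) and 0.26 ± 0.10 beside MS023 (0.13), neither called. Of all genes, 3.70% and 8.97% were called in these comparisons.

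PYGL read 17.4 and 14.6 CPM with MS023 at 15 min, its lowest group, and 22.8 and 23.0 CPM with MS023 and Dex, its highest. The rise with Dex was 0.50 ± 0.14 (log2; edgeR adjusted p 0.016), and 8.97% of genes were called in that comparison. Against untreated cells, at 20.8 and 19.9 CPM, the same Dex libraries stood only 0.17 ± 0.13 higher, which was not called. The rise with Dex beside MS023 was not called with DESeq2 (adjusted p 0.087) or, in edgeR, with library size alone (0.21). It was 0.40 without MS023 15 min replicate 2, and 0.52 and 0.51 without either Dex library. Beside GSK591 the Dex value was -0.07 ± 0.14, and the difference between the Dex effects, at -0.57 ± 0.20, was not called (adjusted p 0.19), where 1.15% of genes were.

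PYGB holds an antisense noncoding gene, AL121772.2, on the minus strand 2939 bp inside its start, which rose with Dex in both settings. It had 6 and 6 counts in the untreated libraries, 4 to 9 with an inhibitor at 15 min and 5 to 11 at 3 h. In the Dex libraries it had 30 and 25 counts beside GSK591 and 36 and 42 beside MS023, above every other library. The log2 fold change with Dex was 2.60 ± 0.44 beside GSK591 (edgeR adjusted p 0.00017) and 2.45 ± 0.41 beside MS023 (3.8e-05), and it was called under each of the 10 alternatives that gave an adjusted p. DESeq2 gave none for it. Such low counts leave wide errors.

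ABHD12 is a lipid hydrolase gene whose body overlaps the end of PYGB by 3272 bp on the opposite strand. It rose with Dex by 0.37 ± 0.10 beside GSK591 (edgeR adjusted p 0.039, DESeq2 0.11) and by 0.48 ± 0.10 beside MS023. The latter had an edgeR adjusted p of 0.0013, or 0.22 with scaling by library size alone, and was 0.38 without MS023 15 min replicate 1. The rise beside GSK591 was called under 3 of 11 alternatives. No exon of PYGB overlaps an exon of AL121772.2 or ABHD12. Reads of PYGB cannot be told apart from intronic reads of the opposite strand where these fall in its exons. Their part in the rise of PYGB with MS023 and Dex against untreated cells was not tested.

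**Figure D4:**
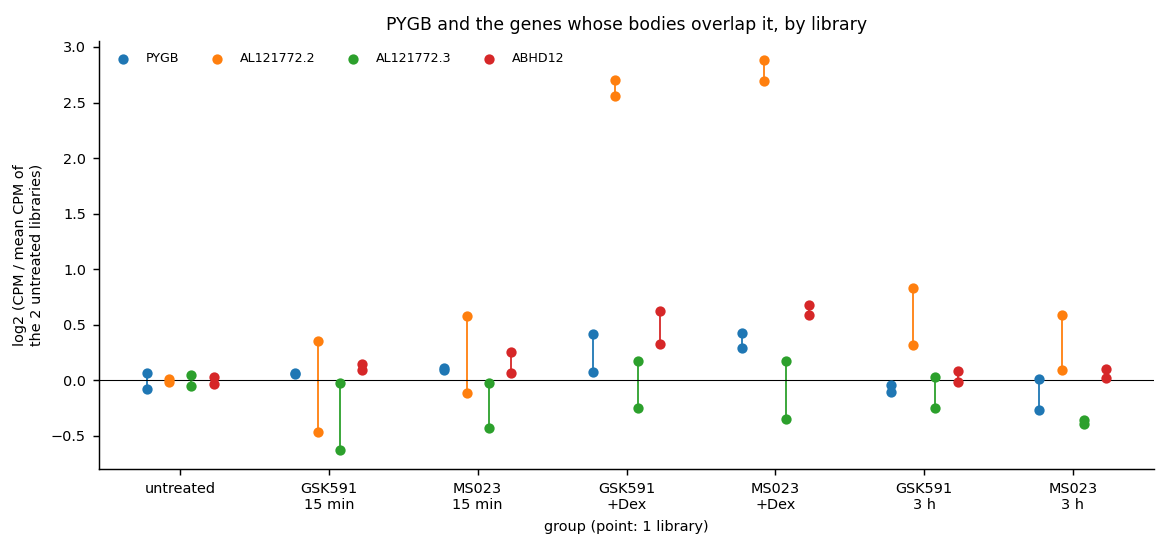
Level of PYGB and of the genes whose bodies overlap it in each library (y axis, log2 of CPM over the mean of the 2 untreated libraries) by group (x axis), with a point per library. AL121772.2 lies above 2.5 in all 4 Dex libraries, ABHD12 and PYGB lie above 0 there, and AL121772.3 lies on both sides of 0.

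PPP1R3C, which targets protein phosphatase 1 to glycogen, had few reads, 21 to 64 counts per library. It read 6.02 and 5.69 CPM in untreated cells, 4.53 and 3.21 CPM with GSK591 and Dex, and 4.21 and 5.02 CPM with MS023 and Dex. All 4 Dex libraries were below both untreated libraries, but not below every library without Dex. GSK591 15 min replicate 2 (4.77 CPM) and MS023 3 h replicate 1 (4.58 CPM) were below MS023 with Dex replicate 2. The Dex values were -0.63 ± 0.27 beside GSK591 (edgeR adjusted p 0.21) and -0.40 ± 0.25 beside MS023 (0.4), neither of them called, and the unadjusted 95% interval beside GSK591 ran from -1.18 to -0.08.

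Among the 6 genes other than GYS1, 3 of 84 gene and contrast values were called (3.57%, against 4.72% of the values of all genes in the same contrasts). The 15 min inhibitor groups against untreated cells held none of them, where 0.306% (GSK591) and 0.183% (MS023) of all genes were called. None of the 6 was called between 3 h and 15 min of MS023 (12.0% of genes), between the inhibitors at 15 min (1.09%) or between the Dex groups. In the last, edgeR called 0 of 21910 genes (0%) with 1659 at an unadjusted p under 0.05, and DESeq2 called 0. The MS023 3 h comparison with untreated cells, where 7.63% of genes were called, held none as well.

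A wider glycogen list of 39 genes put these results beside the rest of the pathway. GYS2, the liver synthase, had at most 1 count per library and PPP1R3A, a muscle targeting subunit, had 0, and both were left out. With Dex added to GSK591, 0 of the 36 tested genes other than GYS1 were called, against 3.70% of all genes. Their median log2 fold change was 0.02, near the 0.00 of all genes tested, and their values ran from -0.63 to 0.38, which sets GYS1 at -1.20 outside the range of its pathway. With Dex added to MS023, 5 of 36 were called (13.9%, against 8.97% of all genes), 4 higher and 1 lower, with a median of 0.08 against -0.02. Against untreated cells, MS023 with Dex gave 5 of 36 (4 higher and 1 lower, against 7.66% of all genes) and GSK591 with Dex gave 1, EPM2A, against 5.85% of all genes. With GSK591 at 3 h, 9 of 36 were called (25%, against 11.0%), 6 higher and 3 lower, with medians of 0.00 and -0.01, and with MS023 at 3 h 4 of 36 (11.1%, against 7.63%), all higher.

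EPM2A, which encodes laforin, the phosphatase that removes phosphate from glycogen, had the widest changes of the list. It read 15.1 and 15.0 CPM in untreated cells, 25.4 and 23.6 CPM with GSK591 and 9.84 and 18.0 CPM with MS023 at 15 min. With Dex it read 30.4 and 31.2 CPM beside GSK591 and 35.3 and 39.9 CPM beside MS023, and at 3 h 27.0 and 28.7 CPM (GSK591) and 32.2 and 28.0 CPM (MS023). The untreated libraries and MS023 replicate 1 were the lowest. With Dex beside MS023 EPM2A rose by 1.48 ± 0.16 (log2; edgeR adjusted p 4.6e-09), and beside GSK591 its value of 0.33 ± 0.15 was not called (0.24). It rose against untreated cells at 3 h by 0.89 ± 0.15 (GSK591, adjusted p 5.5e-05) and 1.01 ± 0.15 (MS023, 8.5e-06). At 15 min of GSK591 the value of 0.71 ± 0.16 was called (edgeR adjusted p 0.026), but not with DESeq2 (0.085) or with scaling to nuclear library size (0.18). Without any 1 of its 4 libraries it was 0.65 to 0.76.

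The kinase gene GSK3A, whose product phosphorylates and inhibits glycogen synthase, rose at 3 h. It read 59.7 and 56.8 CPM in untreated cells, 94.6 and 102 CPM with GSK591 and 95.7 and 97.8 CPM with MS023 at 3 h, with no overlap. The log2 fold changes were 0.75 ± 0.09 (edgeR adjusted p 1.9e-07) and 0.73 ± 0.09 (4.7e-07). At 15 min GSK3A was also called higher with Dex beside MS023, a call lost only with library size alone (edgeR adjusted p 0.2). Its call with MS023 and Dex against untreated cells was kept under 3 of 11 alternatives. With Dex beside GSK591 GSK3A was not called. The difference between its Dex effects beside GSK591 and MS023 was not called either. Under alternatives that difference was -0.61 to -0.44 on the log2 scale, and it passed with nuclear library size (edgeR adjusted p 0.011). PPP1R3D, another targeting subunit of protein phosphatase 1, rose by 0.69 ± 0.13 with GSK591 at 3 h (edgeR adjusted p 3e-04). With MS023 at 3 h PPP1R3D rose by 0.48 ± 0.14 (edgeR adjusted p 0.02, DESeq2 0.12). The latter call was also lost with library size alone (0.084) and with no count filter (0.05). Its value was 0.47 and 0.51 without either untreated library and 0.39 without MS023 3 h replicate 1. About 11.6% of the exon bases of GSK3A overlap another gene's exons on the same strand.

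SLC37A4, the transporter of glucose 6-phosphate into the endoplasmic reticulum, went both ways. It read 22.7 and 19.6 CPM in untreated cells, 15.2 and 14.0 CPM with MS023 and Dex, and 31.3 and 30.9 CPM with GSK591 at 3 h. It fell in the first by -0.53 ± 0.15 (log2; edgeR adjusted p 0.015, DESeq2 0.076) and rose in the second by 0.56 ± 0.13 (0.0028). The fall was also not called with library size alone (edgeR adjusted p 0.062). It was -0.43 without untreated replicate 1, and -0.59 and -0.48 without either MS023 with Dex library. The rise was 0.46 without untreated replicate 2. Exons of other genes on the opposite strand cover 8.79% of its exon bases. PPP1R3G, a targeting subunit as well, fell with GSK591 at 3 h by -0.49 ± 0.15 (edgeR adjusted p 0.028, DESeq2 0.14). Without any 1 of the 4 libraries its value was -0.57 to -0.39. In all, 9 of the 30 other list genes tested were called in at least 1 contrast (30%, against 26.2% of all 21910 genes) and 21 in none. PYGM, GAA, PPP1CA and PPP1CB complete the 9 and are named here after their values were seen.

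**Figure D5:**
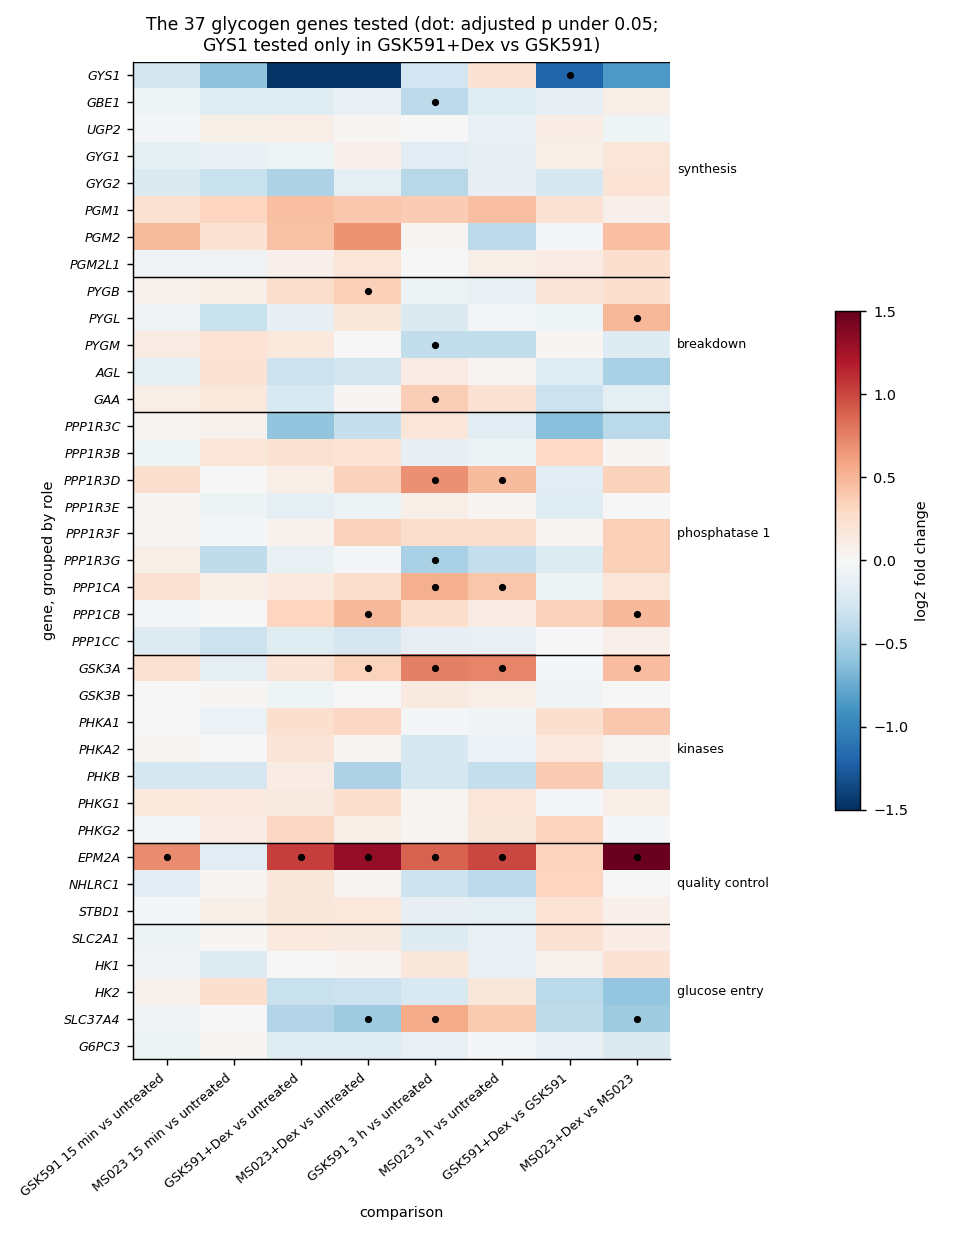
Log2 fold change (colour) of the 37 glycogen genes tested (y axis, grouped by role) in 8 comparisons (x axis), with a dot where the adjusted p (edgeR) was under 0.05. For GYS1 a dot is drawn only in the column of Dex beside GSK591, since its other columns share libraries with its selection. GYS1 at -1.47 is the darkest blue in the panel, EPM2A at up to 1.48 the darkest red, and in the column of Dex beside GSK591 GYS1 carries the only dot.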

How the data were processed

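PRO-seq read counts per gene were analysed for 14 A549 libraries. The authors deposited whole-number counts made with featureCounts 2.0.1 (Subread) on hg38, per the submitters' processing notes; the aligner, the feature counted and the strand setting are not given in the sources used here. The authors also deposited 6 DESeq2 tables that hold, per the file headers, a mean signal (baseMean), log2 fold changes with their standard errors, a test score and p-values; only the log2 fold changes of GYS1 were taken from them.

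Counts were tested as deposited with edgeR 4.0.16 (quasi-likelihood, limma 3.58.1, R 4.3.3), TMM scaling and filterByExpr, with 1 coefficient for each of 7 groups and 7 residual degrees of freedom. P-values were Benjamini-Hochberg adjusted over 21910 genes within each of 14 contrasts, and genes under 0.05 were called. All gene identifiers matched GENCODE release 29 (GRCh38), which gave positions and exon lengths; promoters came from RefSeq (GRCh38.p14). CPM and log2 CPM (prior count 2) used TMM-scaled library sizes. The fit was tested on simulated data.

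The members, the glycogen list and the tests were chosen with earlier results of these data known. Named besides the members were at most 5 called list genes with the largest absolute log2 fold change, genes overlapping a member or within 10 kb of GYS1, and the 5 genes most correlated with GYS1. Alternatives were median-of-ratios scaling, library size with and without mitochondrial counts, DESeq2 1.42.0, no count filter, only the groups compared, the replicate block, and leaving out each library. The last leaves 1 library in a group. Many such fits called fewer of all genes, and several calls named here were lost in them. With no spike-in used here, changes are relative to the bulk of genes.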

Additional observations from a re-analysis of the deposited data

Results flagged for a closer look

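The Dex effect on EPM2A, the laforin gene, differed between the inhibitors by -1.15 ± 0.22 (log2, GSK591 minus MS023; edgeR adjusted p 0.0025, DESeq2 0.019), since Dex came with 1.48 beside MS023 and 0.33 beside GSK591. It drew attention because the same treatment gave unequal changes in 2 settings. The 2 MS023 libraries without Dex were 9.84 and 18.0 CPM, and without the first of them the difference shrank to -0.73.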

How the results depend on the processing

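The fall of GYS1 with Dex beside GSK591 was called under all 11 alternatives run, at -1.41 to -1.11. The 935 values of the other 6 genes under alternatives stayed on their side of the threshold in 915, lost a call in 17 and gained one in 3. No called value changed sign, while 81 of the 915 did without a call on either side. Total library size alone moved the median over all genes tested by up to -0.21 (Dex beside GSK591) and 0.17 (MS023 15 min).

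GYS1 under library size alone was -0.43 (MS023 15 min), -1.62 (GSK591 with Dex), -0.15 (GSK591 3 h), -1.05 (Dex beside MS023), 0.67 (MS023 3 h against 15 min), 0.23 (GSK591 against MS023 at 15 min) and -0.14 (between Dex groups). Under nuclear library size, without mitochondrial counts, it was -0.39 (GSK591 15 min), -0.76 (MS023 15 min), -1.63 (GSK591 with Dex), -0.40 (GSK591 3 h) and 0.94 (MS023 3 h against 15 min). GSK591 against MS023 at 3 h passed the threshold with DESeq2 (-0.50), with no count filter (-0.50) and without MS023 replicate 1 (range over left-out libraries -0.63 to -0.37). That difference stayed uncalled under 7 of the 11 alternatives. Leaving out libraries gave 0.091 to 0.35 for MS023 3 h and 0.70 to 0.95 for MS023 3 h against 15 min.

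Counts of the other 36 glycogen genes called moved as follows. The count over all genes under the same setting stands beside each, except where 1 library was left out. Many of those fits, with 1 library left in a group, called fewer of all genes too. A lower glycogen count there cannot be set apart from that wider drop. Library size alone gave 1 (MS023 with Dex, all genes 977), 2 (MS023 3 h, 1001), 2 (Dex beside GSK591, 1472), 3 (Dex beside MS023, 1850), 2 and 3 (3 h against 15 min, GSK591 and MS023, 712 and 2169) and 0 (between inhibitors at 15 min, 29). Nuclear library size gave 0 (GSK591 15 min, 26), 4 (GSK591 with Dex, 2066), 2 (MS023 with Dex, 1782), 1 and 8 (Dex beside GSK591 and MS023, 898 and 1930), 2 (difference of Dex effects, 480) and 2 (between inhibitors at 15 min, 287). DESeq2 gave 0 (GSK591 15 min, 27), 1 (MS023 with Dex, 832), 2 (Dex beside MS023, 1020), 3 and 3 (3 h against 15 min, 622 and 1426). No count filter gave 3 (MS023 with Dex, 1558). Without these changes the counts over all genes were 67 (GSK591 15 min), 1282 and 1679 (GSK591 and MS023 with Dex), 1672 (MS023 3 h), 811 and 1966 (Dex beside each), 252 (difference), 1405 and 2640 (3 h against 15 min) and 239 (between inhibitors). Leaving out 1 library gave 0 to 0 (GSK591 15 min), 1 to 2 (each inhibitor with Dex), 4 to 7 (GSK591 3 h), 2 to 4 (MS023 3 h), 0 to 1 (Dex beside GSK591), 2 to 5 (Dex beside MS023), 0 to 2 (difference), 2 to 3 and 2 to 5 (3 h against 15 min) and 0 to 1 (between inhibitors at 15 min). Unless construction shows it, the cause was not tested.

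The replicate block moved GYS1 past the threshold between the inhibitors at 3 h (-0.50, edgeR adjusted p 0.029). Over 21 pairs of groups, same-numbered libraries deviated with correlations of -0.07 to 0.10, so the numbers were not taken to pair them.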
